A study of Mus musculus with 4 samples.

Results

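The metalloproteinases (MMPs), ADAMTS proteases and TIMPs are the enzymes that cut extracellular matrix and the inhibitors that hold them in check. The genes were taken by symbol: all array probes whose gene name begins with Mmp and a digit or with Adamts, and the 4 TIMP genes. This gave 51 genes read by 74 probes, out of 30458 gene names and 39429 probes. They were 23 metalloproteinases, 19 ADAMTS proteases, 5 ADAMTS-like proteins without a protease domain and 4 TIMP inhibitors.

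RNA of 4 mouse samples was measured on Agilent single-colour whole-genome arrays, 1 array per group. The transfected tissue was a ligament-like tissue of C3H background, formed by mesenchymal stem cells given a pCAGGS plasmid that carries a mouse gene named only A in the labels. The stem cells were the C3H mesenchymal cells themselves, derived from embryos, obtained from a cell bank and grown in medium with serum. The transgenic ligament came from C57BL/6J mice carrying A in the same vector, which drives expression in most cell types, and the wild type ligament from C57BL/6J mice. The labels give no age, no number of animals and no name for the ligament, and mention no cells given an empty plasmid. Gene A is not identified, so its level could not be used to check the labels. Every comparison of cells with ligament also compares C3H with C57BL/6J and culture with tissue, which cannot be told apart.

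Metalloproteinases cut collagens, proteoglycans and other matrix proteins; most are secreted as inactive precursors, and some sit in the cell membrane. ADAMTS proteases include the enzymes that trim procollagens before fibrils form and the aggrecanases, which cut large proteoglycans, while TIMPs block the active site of these proteases. In tendon and ligament this set of genes is known for its part in the growth, repair and breakdown of the collagen matrix.

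Levels are given as log2 signal relative to the array's own 75th percentile, so that 0 is the signal of that percentile. Probes differ in how well they bind, so levels are compared between arrays and never between genes. A probe counts as detected where the scanner software marks it well above background. A gene was compared between 2 arrays where it was detected on at least 1 of them; where it was dim on the other, the fold is a lower bound, written as at least N-fold. The bound takes for the dim array either its lowest detected level or the probe's reading there, whichever is more. A call, higher or lower, needs a 2-fold difference. No difference has a replicate or a p-value. The SD between repeat spots of bright probes was 0.07 in log2 on the tissue array, 0.18 for stem cells, 0.11 for transgenic and 0.10 for wild type ligament, and covers the spots alone.

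The 75th percentile of the signal was 2260.0 on the tissue array and 1169 on the stem cell array, against 303 on the transgenic and 286 on the wild type ligament array, so weak genes were harder to detect in ligament. All 4 arrays lay on the same slide. Of 8 tendon and ligament markers, 6 were detected in the transfected tissue, 7 in stem cells, 8 in transgenic ligament and 7 in wild type ligament. Both ligament samples also held RNA of other tissues: the summed level of 8 skeletal muscle markers was 4617 times the 75th percentile in transgenic and 5407 times in wild type ligament, against 0.691 in transfected tissue and 1.88 in stem cells. Of 9 mesenchymal stem cell markers, 8 were detected on both the tissue and the stem cell array. In these bulk samples, fewer cells of a type and less RNA per cell cannot be told apart.

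Of the 51 genes, 30 were detected in the transfected tissue, 29 in stem cells, 25 in transgenic ligament and 22 in wild type ligament. Over all genes, the detected shares in the same order were 55.2%, 55.6%, 53.9% and 49.7%. All 4 arrays detected 17 of them, 7 were detected on 3 arrays, 6 on 2 arrays and 5 on a single array. The 16 detected on no array were the ADAMTS proteases Adamts3, Adamts6, Adamts13, Adamts18, Adamts19 and Adamts20 and the metalloproteinases Mmp1a, Mmp1b, Mmp7, Mmp10, Mmp12, Mmp20, Mmp21, Mmp24, Mmp25 and Mmp28. Among these are matrilysin (Mmp7), macrophage elastase (Mmp12), the enamel protease Mmp20 and Adamts13, the protease of von Willebrand factor. The median level of the 16 was -7.78 in transfected tissue and -7.84 in stem cells, against -5.81 in transgenic and -5.31 in wild type ligament. A dim probe therefore read higher on the ligament arrays, whose background lies closer to the 75th percentile, and such differences were not read as expression. All 4 TIMPs were detected in both ligaments, and Timp1, Timp2 and Timp3 also in tissue and stem cells.

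**Figure D1:**
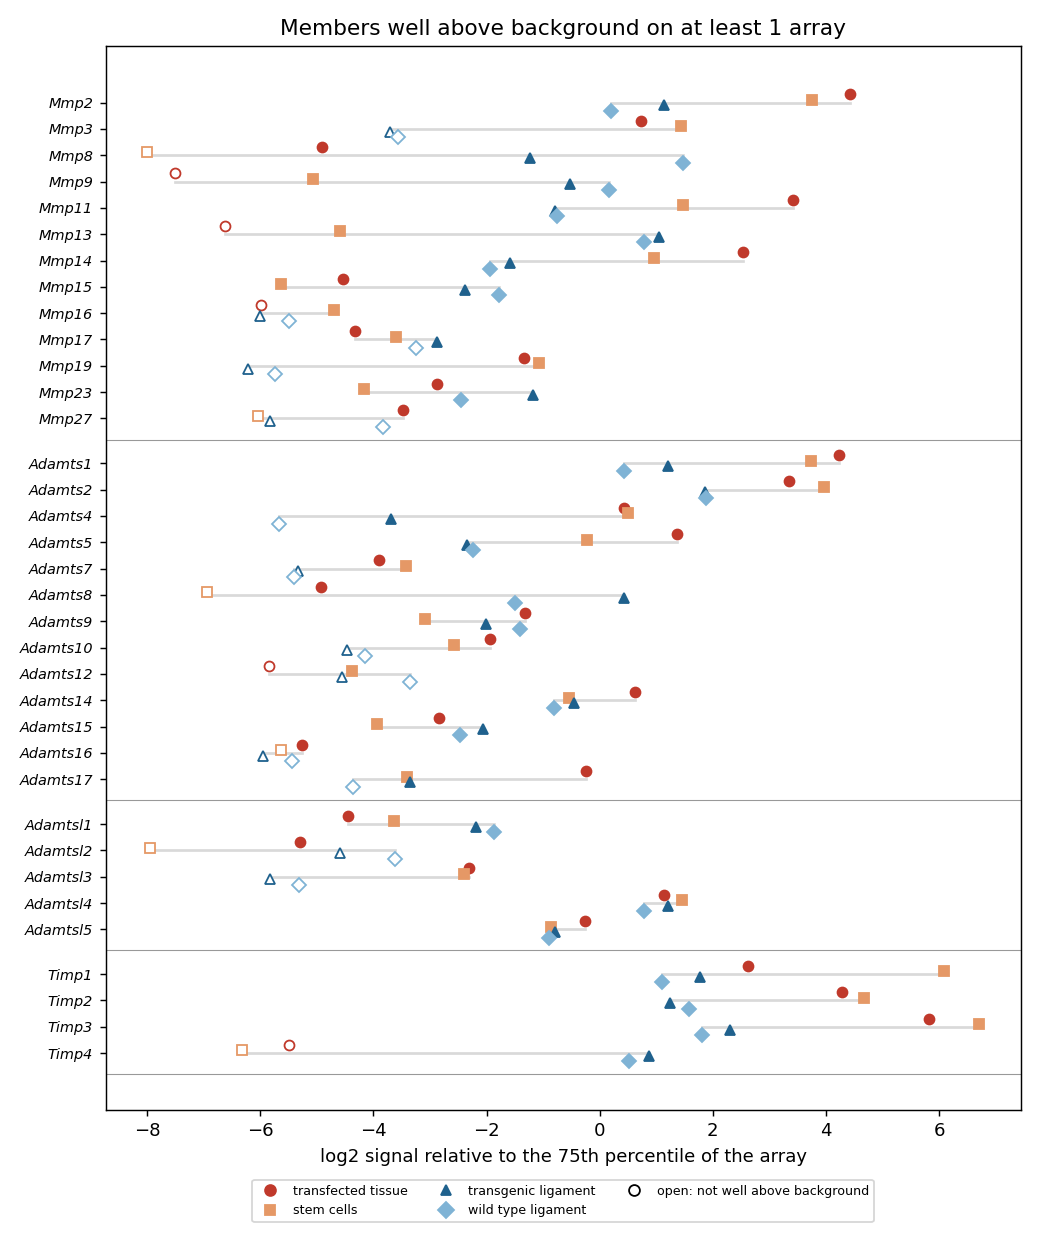
Log2 signal relative to the array's 75th percentile (horizontal axis) for the 35 genes detected on at least 1 array, grouped from top to bottom into metalloproteinases, ADAMTS proteases, ADAMTS-like proteins and TIMPs. Each point is 1 array, and open points were not well above background; Timp4 sits at 0.88 and 0.51 in transgenic and wild type ligament and is dim in transfected tissue and stem cells.

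The first comparison sets the transfected tissue against the stem cells. With 1 array each and no cells with an empty plasmid, gene A, the transfection itself and growth into tissue cannot be told apart. Of 34 genes compared, 10 were at least 2-fold higher in the transfected tissue than in stem cells, against 11.1% of 17897 genes in all, and 4 were at least 2-fold lower, against 13.0%. The higher share stood above the background and the lower share close to it. The median difference was 0.43 over these genes and -0.07 over all genes compared, but -0.10 and -0.18 with another background correction (normexp on raw signals), so its sign depends on that choice. The 10 comprised 5 of 13 ADAMTS proteases and 5 of 13 metalloproteinases; of 3 TIMPs, 1 was lower and none was higher.

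A membrane and a secreted metalloproteinase were among the genes with the clearest increase in signal. Mmp14, a membrane protease that activates pro-Mmp2, had a log2 level of 2.54 in the transfected tissue, against 0.95 in stem cells, a difference of 1.59 or 3.00-fold. Mmp11, a stromelysin that furin activates inside the cell, stood at 3.43 in transfected tissue and 1.48 in stem cells, 3.86-fold higher in the tissue. A second Mmp11 probe gave 5.31-fold. Mmp2, gelatinase A, stood at 4.42 in transfected tissue and 3.75 in stem cells, a difference of 0.67 that stayed within 2-fold; with quantile normalization it was 1.08. The pair of Mmp14 and its substrate Mmp2 were thus both brighter on the tissue array, Mmp14 by the larger step.

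Weaker metalloproteinases followed. Mmp23, a protease anchored by its amino end, had -2.88 in transfected tissue and -4.17 in stem cells, a difference of 1.29. Mmp15, another membrane-type protease, had -4.54 in the tissue and -5.63 in stem cells, a difference of 1.10. Both lie near background: with normexp correction the differences were 0.50 for Mmp23 and -0.08 for Mmp15. Mmp27, a little-studied relative of the stromelysins, was detected in the transfected tissue alone, at -3.47 against -6.05 in stem cells, at least 5.00-fold higher. The normexp bound for Mmp27 was 0.88 in log2, under 2-fold, and a second Mmp27 probe was dim on all 4 arrays. Mmp13, collagenase 3, and Mmp16, a membrane-type protease, went the other way: Mmp13 had -6.62 in the tissue, dim, and -4.59 in stem cells, at least 2.17-fold lower, and Mmp16 had -5.99, dim, against -4.69, at least 2.02-fold lower. Both calls ended with quantile normalization, at -0.93 for Mmp13 and -0.85 for Mmp16. The remaining metalloproteinases compared, Mmp3, Mmp8, Mmp9, Mmp17 and Mmp19, lay within 2-fold or had bounds within it. Mmp9 gave a dim -7.50 ± 0.39 over 9 kept spots on the tissue array and -5.07 ± 0.29 over 10 spots on the stem cell array (SD over spots). Mmp17, a membrane protease held by a lipid anchor, had -4.32 in the tissue and -3.60 in stem cells, and was detected at -2.88 in transgenic ligament while dim at -3.25 in wild type.

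Of the ADAMTS proteases, Adamts17 differed most. Adamts17, a protease linked to fibrillin microfibrils and mutated in a human syndrome of short stature, had -0.24 in the transfected tissue and -3.40 in stem cells, 8.96-fold higher in the tissue. Its second probe was detected in the tissue alone, at least 3.18-fold higher. Transgenic ligament read -3.35 for Adamts17 and wild type ligament -4.37, dim, so the tissue stood apart from all 3 other samples for this gene. Adamts9, which cuts versican and aggrecan, had -1.32 in transfected tissue and -3.08 in stem cells, 3.39-fold higher. A second Adamts9 probe, detected in the tissue alone, gave a bound of 1.39-fold. By the first probe the level of Adamts9 in the tissue was close to that of wild type ligament, -1.40.

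The aggrecanases did not move as a group. Adamts5, the main aggrecanase of mouse cartilage, had 1.36 in the transfected tissue and -0.22 in stem cells, 2.99-fold higher, by the probe used. A second Adamts5 probe gave 0.50 in the tissue and 0.79 in stem cells, a difference of -0.29. Adamts4, the other classical aggrecanase, stood at 0.42 in the tissue and 0.50 in stem cells. Adamts1, a protease of versican and aggrecan, stood at 4.23 in the tissue and 3.74 in stem cells, a difference of 0.49. Adamts15, a further versican-cutting protease, had -2.84 in the tissue and -3.94 in stem cells, a difference of 1.10 that normexp correction brought to 0.50.

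The procollagen N-proteinases were split. Adamts14 had 0.62 in the transfected tissue and -0.54 in stem cells, 2.23-fold higher, by the probe used. A second Adamts14 probe was dim on all 4 arrays, and the call was not kept with the mean of all probes. Adamts2, the enzyme lost in dermatosparaxis, had 3.34 in the tissue and 3.97 in stem cells, a difference of -0.63 within 2-fold. Adamts3, the third of these enzymes, was detected on no array. Adamts12, which like Adamts7 cuts cartilage oligomeric matrix protein, was dim in the tissue at -5.84, against -4.38 in stem cells, at least 2.51-fold lower; with normexp correction the bound was -0.99. Adamts7 had -3.89 in the tissue and -3.42 in stem cells, within 2-fold, and was dim in both ligaments. Adamts10, linked like Adamts17 to fibrillin microfibrils, had -1.94 in the tissue and -2.58 in stem cells, also within 2-fold, and was dim in both ligaments.

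With 1 probe per gene, Timp1 gave the largest difference between transfected tissue and stem cells; a second Adamtsl1 probe, described with the probes, had a larger bound. Timp1, a secreted inhibitor of most metalloproteinases and a weak one of Mmp14, had a log2 level of 2.63 in the transfected tissue and 6.09 in stem cells, 11.0-fold lower in the tissue. Over the alternative settings this difference lay between -3.50 and -3.24. Timp3, the inhibitor that binds to matrix and also blocks aggrecanases, had 5.82 in the tissue and 6.71 in stem cells, a difference of -0.88. Timp2, which also takes part in the activation of pro-Mmp2 by Mmp14, had 4.28 in the tissue and 4.67 in stem cells by the probe used. A brighter Timp2 probe, at 6.94 in stem cells, had no value kept on the tissue array. By the probes used, all 3 TIMPs detected in cells were thus dimmer in the tissue, and Timp1 alone passed 2-fold.

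The ADAMTS-like proteins, which bind matrix and do not cut it, showed no call among 5 compared. Adamtsl4, a fibrillin-binding protein of the lens ligament, had 1.13 in transfected tissue and 1.46 in stem cells. Adamtsl3 had -2.31 in transfected tissue and -2.41 in stem cells, and was dim in both ligaments. Adamtsl5 had -0.26 in transfected tissue and -0.87 in stem cells, a difference of 0.60. Adamtsl2, which binds fibrillin and latent TGF-beta complexes, was detected in the transfected tissue alone, at -5.31, and its bound against stem cells was 1.40-fold. Adamts16, detected likewise in the tissue alone at -5.26, had a bound of 1.30-fold. Both lie just above the lowest detected level of that array, -5.71.

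**Figure D2:**
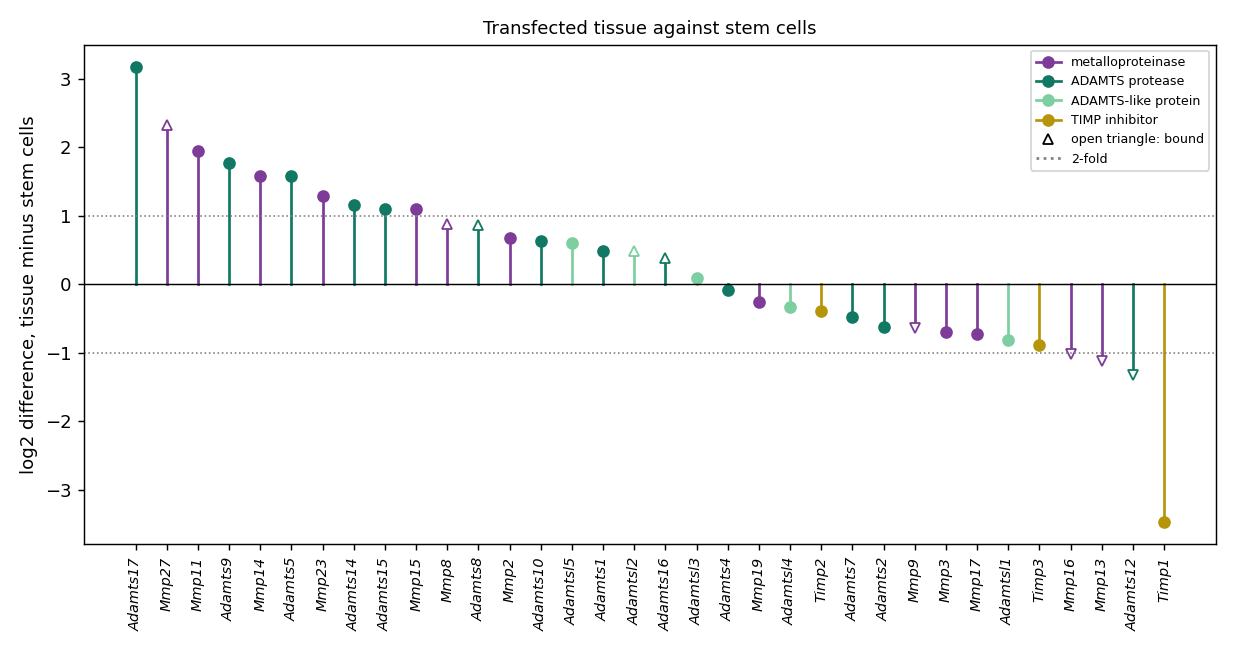
Log2 difference, transfected tissue minus stem cells (vertical axis), for the 34 genes compared, sorted by size and coloured by class. Filled points were measured on both arrays, open triangles are bounds and dotted lines mark 2-fold; Adamts17 lies highest at 3.16 and Timp1 lowest at -3.46.

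The second comparison sets transgenic against wild type ligament. Markers of epidermis, bone, neutrophils and erythroid cells also differed between these samples, as given below. With 1 array each, the transgene and the tissue content of the samples cannot be told apart. Of 24 genes compared between transgenic and wild type ligament, 2 were at least 2-fold higher, against 6.3% of 16425 genes, and 1 was at least 2-fold lower, against 7.02%. These shares are close to the background. The median difference was 0.31, and -0.02 over all genes compared.

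Mmp8, the collagenase stored in neutrophil granules, was the gene called lower. It had a log2 level of -1.23 in transgenic and 1.48 in wild type ligament, 6.57-fold lower in transgenic, and lay between -2.88 and -2.23 in log2 difference over the alternative settings. The probe lies at chr9:7568238-7568297 (mm9). All 10 neutrophil markers compared were likewise at least 2-fold lower, with a median of -2.36 and a summed level of 429 in transgenic against 1212 in wild type ligament. Lactoferrin (Ltf) differed by -2.97, S100a8 by -2.39 and myeloperoxidase (Mpo) by -1.08. The 6 erythroid markers compared were also all lower, with a summed level of 120 in transgenic and 558 in wild type ligament. The part of these cells in the Mmp8 difference was not tested.

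Mmp9, gelatinase B, is made by neutrophils and osteoclasts. Its probe is printed 10 times on each array, and the spots gave -0.52 ± 0.08 in transgenic and 0.17 ± 0.05 in wild type ligament (SD over 10 spots each). The difference of -0.69 exceeds the spread of the spots but stays within 2-fold and carries no replicate sample. The osteoclast markers held no call among 6 compared, with a summed level of 120 in transgenic and 90.1 in wild type ligament. Mmp13, the collagenase of bone and hypertrophic cartilage, had 1.05 in transgenic and 0.79 in wild type ligament, while 5 of 6 bone markers were at least 2-fold higher and their summed level was 209 in transgenic against 51.7 in wild type ligament. Of 7 cartilage markers compared 2 were at least 2-fold higher, with a summed level of 2.1 in transgenic and 0.89 in wild type ligament. Mmp13 itself differed by 0.26, within 2-fold. The part of bone or cartilage in its value was not tested.

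The genes called higher were Adamts8 and Mmp23. Adamts8, a weak aggrecanase, had 0.43 in transgenic and -1.49 in wild type ligament, 3.78-fold higher. A second Adamts8 probe, nearer the start of the gene, was dim on both ligament arrays, and the mean over both probes was 0.86 in log2. Mmp23 had -1.18 in transgenic and -2.45 in wild type ligament, 2.42-fold higher, or 0.57 in log2 with normexp correction. Mmp23 alone was called in the transgenic ligament and also in the transfected tissue against stem cells, both times higher, by 1.27 and 1.29. The 8 tendon and ligament markers included 6 called higher in transgenic ligament, with a summed level of 39.8 against 12 in wild type. Epidermis markers were higher as well, 6 of 8 compared, with a median of 2.09 and a summed level of 171 in transgenic against 32.8 in wild type ligament, as were the bone markers given above. The part of these tissues in the Adamts8 and Mmp23 values was not tested.

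Of the 24 genes compared, the other 21 lay within 2-fold. Mmp2 had 1.14 in transgenic and 0.20 in wild type ligament, a difference of 0.94 just under the threshold. Mmp14 differed by 0.36 and Mmp11 by -0.04. Adamts1 had 1.20 in transgenic and 0.43 in wild type ligament, a difference of 0.77, whereas Adamts2 differed by -0.01 and Adamts5 by -0.12. All 4 TIMPs stayed within 2-fold, with differences of 0.67 for Timp1, 0.50 for Timp3, 0.37 for Timp4 and -0.34 for Timp2. Timp2 turned to 0.36 in the deposited value table, where a brighter probe represents it. Timp1 was thus 11.0-fold lower in transfected tissue than in stem cells, while in transgenic ligament it read 1.77, against 1.10 in wild type.

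**Figure D3:**
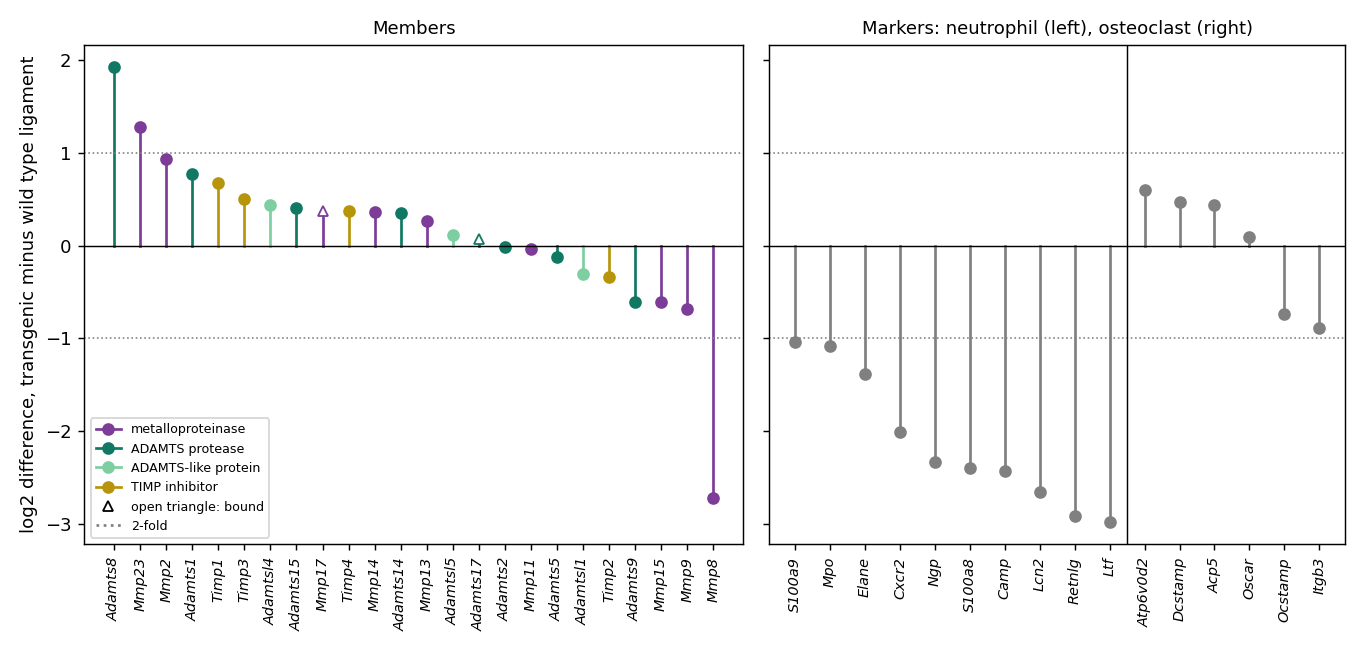
Log2 difference, transgenic minus wild type ligament (vertical axis), for the 24 genes compared (left panel) and for 10 neutrophil and 6 osteoclast markers (right panel). Filled points were measured on both arrays, open triangles are bounds and dotted lines mark 2-fold; Mmp8 at -2.72 lies within the range of the neutrophil markers, which run from -2.97 to -1.04.

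Part of these genes differed in level between ligament and cells. Of 30 genes detected on both arrays of at least 1 side, 7 were at least 2-fold higher on both ligament arrays than on both cell arrays, against 25.8% of 17322 genes, and 12 were at least 2-fold higher on both cell arrays, against 14.2%. The ligament-high share is close to the background and the cell-high count stands above it. The arrays of a side are different groups and not replicates.

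The ligament-high genes were Mmp8, Mmp9, Mmp13, Mmp15, Adamts8, Adamtsl1 and Timp4. Adamts8 and Adamtsl1 are among these by the probe used alone. A second Adamts8 probe was detected on both cell arrays and dim in both ligaments. Another Adamtsl1 probe was detected in stem cells alone, as described with the probes. Mmp8 read -1.23 in transgenic and 1.48 in wild type ligament, against -4.92 in transfected tissue and a dim -8.00 in stem cells, and wild type ligament stood at least 155-fold over stem cells. Mmp13 read 1.05 and 0.79 in transgenic and wild type ligament, against a dim -6.62 in transfected tissue and -4.59 in stem cells, where wild type ligament was 41.5-fold higher. Mmp9 was 37.8-fold higher in wild type ligament than in stem cells. These 3 are known products of neutrophils, osteoclasts or bone cells, and the summed level of neutrophil markers was 429 in transgenic and 1212 in wild type ligament, against 1.35 in transfected tissue and 1.44 in stem cells, with 4 of 10 markers detected on each cell array. The osteoclast markers summed to 120 and 90.1 in the ligaments, against 0.534 in transfected tissue and 1.02 in stem cells. The part of these cells in the differences was not tested.

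Timp4, the inhibitor most abundant in heart and skeletal muscle, had 0.88 in transgenic and 0.51 in wild type ligament and was dim on both cell arrays, at -5.50 in transfected tissue and -6.32 in stem cells. Wild type ligament stood at least 79.0-fold over stem cells. The muscle markers given above were also higher in both ligaments than in cells. Between the ligaments the sum of the muscle markers was lower in transgenic than in wild type, while 3 of 8 were at least 2-fold higher and 0 lower. Timp4 differed by 0.37 between them. Fat markers, with sums of 150 and 147 in the ligaments against 4.24 and 3.33 in the cells, and erythroid markers were higher in ligament too. The part of these tissues in Timp4 was not tested. Mmp15 had -2.38 in transgenic and -1.77 in wild type ligament, against -4.54 in transfected tissue and -5.63 in stem cells, and Adamts8 had 0.43 and -1.49 in the ligaments, against -4.93 in transfected tissue and a dim -6.95 in stem cells. Adamtsl1, also called punctin, had -2.18 in transgenic and -1.88 in wild type ligament, against -4.45 in transfected tissue and -3.64 in stem cells.

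The cell-high genes were Mmp2, Mmp3, Mmp11, Mmp14, Mmp19, Adamts1, Adamts2, Adamts4, Adamts5, Adamtsl3, Timp2 and Timp3. Adamts4 is among these 12 by the probe used alone, since its second probe read higher in the ligaments, as described with the probes. Mmp2 read 4.42 in transfected tissue and 3.75 in stem cells, against 1.14 in transgenic and 0.20 in wild type ligament, and the tissue stood 18.6-fold over wild type ligament. Mmp14 was 22.4-fold and Mmp11 18.1-fold higher in transfected tissue than in wild type ligament. Mmp3, stromelysin 1, read 0.74 in transfected tissue and 1.43 in stem cells and was dim in both ligaments, at -3.71 in transgenic and -3.57 in wild type. Mmp19 likewise was detected in the cells alone, at -1.34 in transfected tissue and -1.08 in stem cells. Among the proteoglycan-cutting enzymes, Adamts1 was 13.9-fold and Adamts5 12.1-fold higher in transfected tissue than in wild type ligament.

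The procollagen N-proteinase Adamts2 stood closer, at 3.34 in transfected tissue and 3.97 in stem cells, against 1.87 in transgenic and 1.88 in wild type ligament. Timp3 was 29.9-fold and Timp2 8.53-fold lower in wild type ligament than in stem cells. Timp1 was 31.8-fold lower in wild type ligament than in stem cells but fell outside the cell-high set, since the tissue at 2.63 lay within 2-fold of transgenic ligament at 1.77. The tissue level of Timp1 was therefore nearer to the ligaments than to the cells it came from. Adamts9 ended close to wild type ligament, with a difference of 0.08 between transfected tissue and that sample. The same difference was -0.37 for Adamts15 and -0.43 for Mmp23. For each of these genes transgenic ligament lay further from the tissue than wild type ligament did. Mmp23 read -1.18 in transgenic ligament, against -2.88 in transfected tissue and -4.17 in stem cells. Its tissue level was thus nearer to stem cells than to transgenic ligament.

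Counted by pairs, 10 of 28 genes were higher and 13 lower in wild type ligament than in stem cells, where 37.8% of 16602 genes were higher and 24.5% lower. In transfected tissue against wild type ligament 16 of 28 were higher and 7 lower, where 23.1% of 16550 genes were higher and 39.5% lower. The median over the genes described here was -0.76 in the first of these comparisons and 1.44 in the second, while over all genes it was 0.30 and -0.41. Quantile normalization moved the all-gene medians to -0.14 and 0.15 and the shares to 30.4% higher and 30.5% lower in the first and 29.9% higher and 29.5% lower in the second, while the members gave -0.87 and 1.68. These comparisons and those above share arrays, so their values are not independent of each other.

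A run of 10 metalloproteinase genes on chromosome 9 includes collagenases, stromelysins and matrilysin. In the order of their probes, over 415 kb between chr9:7282762 and chr9:7697700 (mm9), these are Mmp13, Mmp12, Mmp1b, Mmp3, Mmp1a, Mmp10, Mmp8, Mmp27, Mmp20 and Mmp7. Only 4 of the 10 were detected on any array: Mmp3 in both cell samples, Mmp8 in transfected tissue and both ligaments, Mmp13 in stem cells and both ligaments, and Mmp27 in transfected tissue. The other 6, including Mmp1a and Mmp1b, close paralogues that a probe may not separate, were dim throughout. Of the 13 metalloproteinase genes elsewhere, 4 were on no array.

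The promoters of this cluster are shown because 7 of its 10 genes carry the letters of the AP-1 site, so their counts below are a description only. Fos and Jun factors bind this site, and collagenase and stromelysin genes are classically induced through it. The sequences are from RefSeq (GRCm38.p6), the 150 bases before the gene start on the gene's own strand, with capitals marking TGAGTCA on either strand (TGACTCA is its reverse complement) and TATAAA. Mmp13 lies at chr9:7272364-7272513, Mmp3 at chr9:7445672-7445821, Mmp1a at chr9:7463991-7464140, Mmp10 at chr9:7502192-7502341 and Mmp8 at chr9:7558279-7558428, all on the plus strand.
Mmp13 promoter: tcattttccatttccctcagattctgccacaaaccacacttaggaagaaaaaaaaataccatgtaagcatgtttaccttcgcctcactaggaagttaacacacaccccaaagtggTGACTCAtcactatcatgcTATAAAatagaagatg
Mmp3 promoter: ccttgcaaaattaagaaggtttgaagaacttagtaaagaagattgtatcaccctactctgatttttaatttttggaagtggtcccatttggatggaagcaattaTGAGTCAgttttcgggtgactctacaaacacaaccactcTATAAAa
Mmp1a promoter: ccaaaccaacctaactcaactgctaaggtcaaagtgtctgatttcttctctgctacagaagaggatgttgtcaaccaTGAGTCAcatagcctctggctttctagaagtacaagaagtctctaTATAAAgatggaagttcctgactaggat
Mmp10 promoter: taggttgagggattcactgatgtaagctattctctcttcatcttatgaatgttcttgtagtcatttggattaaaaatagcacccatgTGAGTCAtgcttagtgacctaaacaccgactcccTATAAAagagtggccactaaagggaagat
Mmp8 promoter: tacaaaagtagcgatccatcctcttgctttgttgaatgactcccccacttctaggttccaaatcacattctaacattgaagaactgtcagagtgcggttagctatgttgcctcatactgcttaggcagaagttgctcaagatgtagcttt
Mmp13 carries the AP-1 letters 35 bases before the start, Mmp3 46, Mmp10 63 and Mmp1a 73 bases before it, while Mmp8 has neither motif in this stretch. In windows of 250 bases before the start, TGAGTCA on either strand was found in 7 of these 10 genes, against 5.16% of 27025 mouse genes. TATAAA on either strand was found in 7 of 10, against 14.3%, and both together in 6 of 10, against 0.862%. Of the other 26 genes of the families with a promoter window, 0 held TGAGTCA and 3 held TATAAA. The letters did not go with one pattern of signal: of the 7 genes with TGAGTCA, 5 were detected on no array, Mmp3 was cell-high and Mmp13 ligament-high. A match of letters is a description and not a shown binding site.

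**Figure D4:**
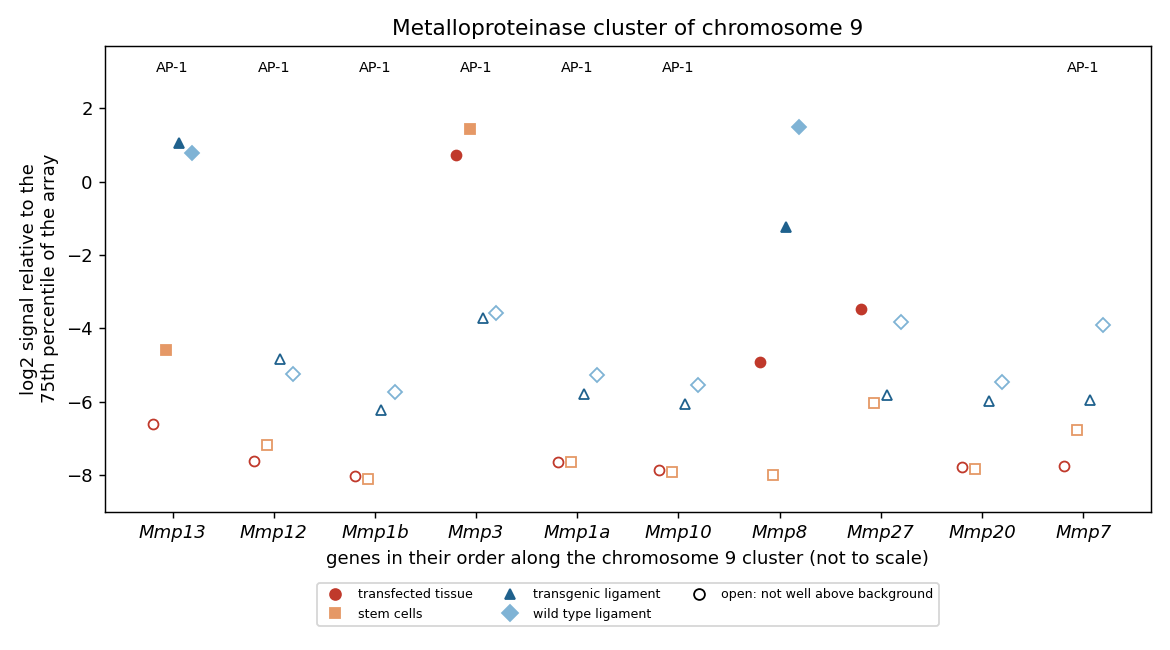
Log2 signal relative to the array's 75th percentile (vertical axis) for the 10 metalloproteinase genes in their order along chromosome 9 (horizontal axis, not to scale). Each point is 1 array, open points were not well above background, and AP-1 marks the 7 genes whose promoter window holds that motif; Mmp3 at 0.74 and 1.43 in transfected tissue and stem cells, and Mmp13 at 1.05 and 0.79 in transgenic and wild type ligament, are bright in opposite samples.

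Several genes were read by more than 1 probe, and for a few the answer depended on which. Of the 51 genes, 22 had several probes. Probes of 1 gene passed 2-fold in opposite directions for Adamts4 and Adamtsl1 between wild type ligament and stem cells, and for Adamts4 between transfected tissue and wild type ligament. The Adamts4 probe at chr1:173189952-173190011 (mm9) read 0.42 in transfected tissue and 0.50 in stem cells, against -3.69 in transgenic and a dim -5.68 in wild type ligament. The Adamts4 probe at chr1:173190709-173190768 read -4.64 in transfected tissue and -4.16 in stem cells, against -1.90 in transgenic and -1.21 in wild type ligament. Transfected tissue was thus at least 14.3-fold over wild type ligament by the first probe and 10.8-fold under it by the second, so no direction for Adamts4 between cells and ligament is drawn.

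Adamtsl1 had 3 probes. The probe used, at chr4:86074196-86074255, gave -4.45 in transfected tissue and -3.64 in stem cells. A probe nearer the start of the gene was dim on all 4 arrays. The probe between them spans 24088 bases of genome from chr4:85898689 to chr4:85922776 in only 60 bases of sequence, so it crosses a splice junction, and its sequence is shown because its last codon in the first reading frame, in capitals, is the only stop in that frame.
Adamtsl1 junction probe: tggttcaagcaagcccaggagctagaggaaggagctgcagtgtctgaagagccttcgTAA
This junction probe read a dim -7.88 in the transfected tissue and -1.81 in stem cells, at least 14.9-fold lower in the tissue, and was dim at -6.07 in transgenic and -5.59 in wild type ligament. Stem cells alone therefore gave a signal with it, whereas the probe used placed Adamtsl1 highest in the ligaments. Adamtsl5, a fibrillin-binding protein, had 2 probes, both detected on all 4 arrays, that also differed but without opposite calls. In wild type ligament against stem cells they gave -0.03 and 2.12.

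**Figure D5:**
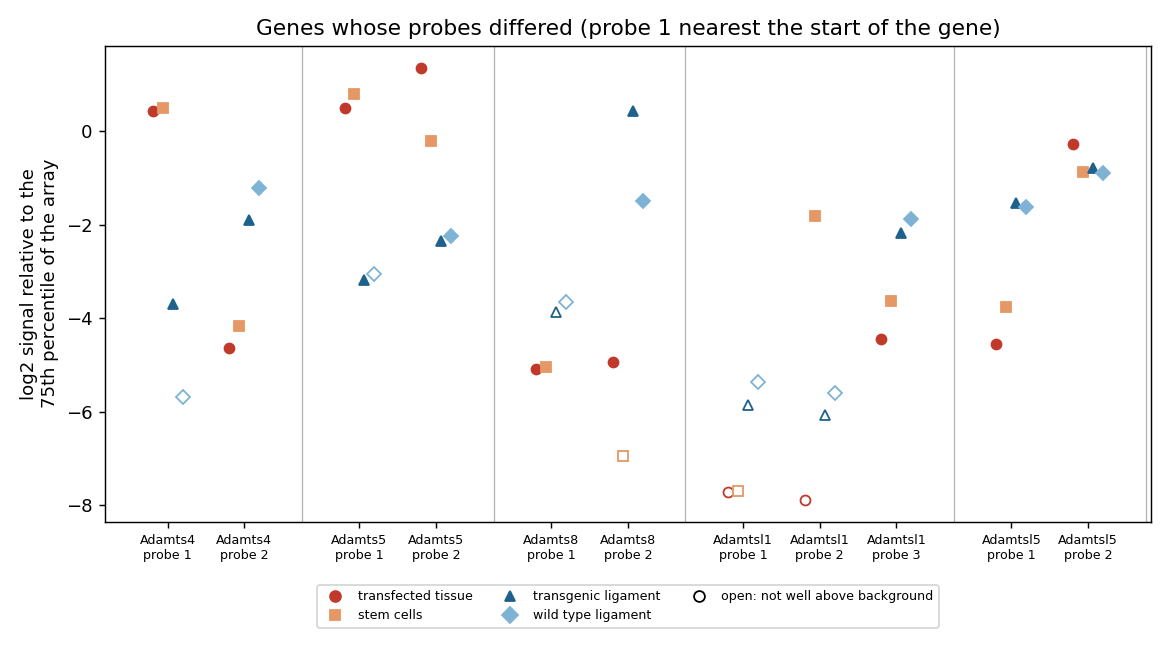
Log2 signal relative to the array's 75th percentile (vertical axis) for each probe of 5 genes whose probes differed, with probe 1 nearest the start of the gene. Each point is 1 array and open points were not well above background; the probes of Adamts4 order the cells and the ligaments in opposite ways, and Adamtsl1 probe 2 is detected in stem cells alone, at -1.81.

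The genes that act with these proteases are given from lists by role. Among plasminogen and furin activator genes, the urokinase receptor Plaur differed by -3.12 and urokinase Plau by -2.24 in transfected tissue against stem cells. Hpn, a membrane serine protease, had a bound of -1.06. Of 9 ADAM family genes compared, Adam8 at -3.93 and Adam12 at -2.56 were lower and none was higher. The Fos-family gene Fosl1, which pairs with Jun at AP-1 sites, differed by -4.03 and the Ets factor Etv4 by -2.15, among 4 of 13 inducers lower and 1 higher. Over all genes 13.0% were lower and 11.1% higher in this comparison, and with lists this short no list is set apart from that share.

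Receptors that take up or sense matrix included genes called both ways in transfected tissue against stem cells. Of 7 compared, 3 were higher: Ddr2, a collagen receptor kinase, by 1.71, Lrp1, the endocytic receptor of many proteases and TIMP complexes, by 1.45, and the collagen receptor Mrc2 by 1.06. Cd44, the hyaluronan receptor that docks Mmp9 and Mmp14, was lower, with a difference of -2.04. Of 10 substrates 4 were lower, with differences of -1.81 for elastin (Eln), -1.08 for Fbn1, -1.06 for Col1a1 and -1.03 for Col2a1. Cst6, a cystatin, was the single higher gene of 9 cathepsins and cystatins, at 3.56, and Mep1a, an astacin protease, the single one of 5 astacins and procollagen enhancers, at 3.16. These counts stand against 11.1% higher and 13.0% lower over all genes. Reck, a membrane inhibitor of Mmp2, Mmp9 and Mmp14, differed by 0.92 and stayed within 2-fold.

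In transgenic against wild type ligament, Plaur at -2.19 and Plau at -1.20 were the 2 lower of 9 genes of the activator list. Adam8 at -2.29 and Adamdec1, with a bound of -1.48, were the 2 lower of 10 ADAM family genes. The neutrophil markers given above were lower in the same sample; their part in these values was not tested. Of 3 genes compared from the list of other inhibitors, the proteoglycan Spock2 had a bound of 3.53, Rarres1 a difference of 1.77 and Reck one of -0.43. Whether Spock2 and Rarres1 inhibit metalloproteinases here was not tested. Of 9 substrates 3 were higher, Comp by 2.58, Col2a1 by 2.16 and Col1a2 by 1.02. The shares over all genes were 6.3% higher and 7.02% lower. None of 11 cathepsins and cystatins passed 2-fold, although cathepsin K (Ctsk), the collagenase of osteoclasts, stood 9.08 in log2 above stem cells in wild type ligament.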

How the data were processed

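RNA of 4 samples was hybridised to 1 Agilent single-colour (Cy3) array each. Per the file headers, the deposited scanner files hold each spot's intensity as linear processed signal after background subtraction, written by Feature Extraction 10.7.1.1; the submitters' processing notes name version 9.5.1.1, and which holds was not settled. The deposited value table holds linear intensity too, with a median of 49.7 in every column; each column matched its own sample's scanner file best (Spearman 0.9999 over probes), and its normalization is not stated in the sources used here.

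Control spots and the 155 to 281 outlier spots per array were left out, of 44397 spots each, 43020 of them not controls; 0 spots were saturated. The level was log2 processed signal less the 75th percentile of its array. Spots of a probe were averaged, and a probe was detected where at least 50% of its spots carried the scanner's mark. Among probes with a value on all 4 arrays, the one with the highest mean represented a gene. Probes were named through RefSeq accessions (26761 of 39429) or else by the symbol in the files. Positions are those of the files (mm9); no exon or UTR annotation was used. Repeat-spot SDs come from 230 to 249 of 399 probes with 10 spots. With 1 array per group no test was made, and the number of arrays limits the precision.

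The members and lists were chosen with earlier results of these data known. Outside the members, at most 4 genes per list and comparison, those with the largest difference, were to be named, besides cell type markers; 1 result of the activator list is not reported here. Alternatives were normexp correction with offset 50 (limma 3.58.1, R 4.3.3), centring on the probes that every array detected, quantile normalization, the deposited table, only genes detected on both arrays, no filter, and the mean of all probes of a gene. Promoter letters were counted in Python 3.11.15 in RefSeq windows, found for 36 of the 51 genes.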

Additional observations from a re-analysis of the deposited data

How the results depend on the processing

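No paired analysis was possible because each group holds 1 array and the labels give no replicate numbers; for the same reason no array could be left out. Of the values recomputed, 586 kept within the margin, 278 moved and 1 called value turned its sign: Mmp15 in transfected tissue against stem cells, -0.0835 with normexp correction. Values under 2-fold also changed sign, such as Timp2 in transgenic against wild type ligament (-0.34, and 0.36 in the deposited table), the median over the members in transfected tissue against stem cells (0.43, and -0.10 with normexp correction) and the all-gene medians under quantile normalization given above. In transfected tissue against stem cells, higher genes numbered 6 and lower genes 2 with normexp correction, against 10 and 4; lower genes also numbered 2 with quantile normalization, with centring on probes detected on all arrays and with the deposited table, and 1 with only genes detected on both arrays. Under normexp correction the calls over all genes fell to 6.27% higher in that comparison and to 2.47% higher and 3.45% lower in transgenic against wild type ligament. In transgenic against wild type ligament higher genes numbered 1 with normexp correction and 1 with the mean of all probes, and 5 higher with 5 lower where no filter or bound was used. Without filter or bound 29 genes were higher in wild type ligament than in stem cells and 25 lower in transfected tissue than in wild type ligament, since dim probes then count. With only genes detected on both arrays, transfected tissue against wild type ligament gave 10 higher and 4 lower. Genes with opposite calls in cells and in mice numbered 0, but 1 with centring on probes detected on all arrays (Mmp8) and 2 with no filter (Mmp27 and Mmp8). Genes with probes in opposite directions in wild type ligament against stem cells numbered 2, and 1 with normexp correction. The cause of these shifts was not tested, except where fewer or more genes were compared by construction. Of all calls in transfected tissue against stem cells, higher ones made up 46.1%, and 33.7% with normexp correction; in wild type ligament against stem cells they made up 60.7%, and 49.9% with quantile normalization; in transfected tissue against wild type ligament 36.9%, and 50.3%. Calls kept under the scalings, the deposited table and the mean of all probes were 5 of 14 (Adamts17, Adamts9, Mmp11, Mmp14 and Timp1), 1 of 3 (Mmp8), 19 of 23 and 18 of 23 in the 4 comparisons. The low signal of the ligament arrays limits what can be said of dim genes there.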
